A study of Mus musculus with 899 samples.

Results

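The 2 mature arms of mouse miR-223, mmu-miR-223-3p and mmu-miR-223-5p (miR-223-3p and miR-223-5p in what follows), were followed in mouse plasma before and after irradiation of the whole thorax. They were chosen by name, as the products of the single mouse miR-223 hairpin, and were 2 of the 1915 mature miRNA listed in the count table. Both passed the filter on low counts that left 483 miRNA for testing. The table held 899 plasma small RNA libraries from 196 mice of the strains C3Hf/Sed/Kam (C3H) and C57Bl/6. Young adult mice of both sexes received whole thorax lung irradiation (WTLI) with 1 dose per strain, set to be lethal to most animals within the strain's observation period, or were sham irradiated. There were 64 irradiated and 32 sham irradiated C3H mice, and 68 irradiated and 32 sham irradiated C57Bl/6 mice. Blood was drawn before treatment, then at day 2 or day 5 (each mouse at only 1 of these), at month 1, and monthly to month 4 in C3H and month 6 in C57Bl/6. The exceptions were 4 irradiated C57Bl/6 females of cohort code G1, which gave samples only from month 1 on and none before treatment. Sham and irradiated mice were different animals at every time point, whereas the time points within a treatment shared mice. Irradiated mice that were lost during follow-up gave no later sample, so the last irradiated groups were the smallest (17 C3H mice at month 4 and 8 C57Bl/6 mice at month 6). Each sample name carried such a cohort code, G1 or G3 for C57Bl/6 and G2 or G4 for C3H. Only G1 and G2 mice were followed beyond month 1.

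miRNA are short RNA that load into Argonaute proteins and repress messenger RNA that pair with their seed, bases 2 to 8 of the mature sequence. miR-223 is best known as a miRNA of the myeloid lineage, abundant in neutrophils, monocytes and platelets, where it restrains granulocyte production and inflammatory genes such as Nlrp3. Its 3p arm is the dominant product, and the 5p arm is the less abundant strand of the same precursor. Plasma carries miRNA shed by blood cells and tissues, and a lower plasma level cannot tell fewer cells of a type from less RNA released per cell.

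The mature sequences are printed because they are the features that were counted, with the seed in capitals and each read 5′ to 3′.
miR-223-3p: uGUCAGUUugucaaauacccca
miR-223-5p: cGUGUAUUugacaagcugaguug
The arms lie at chrX:96242884-96242905 (3p) and chrX:96242842-96242864 (5p) of GRCm38.p6, on the plus strand. Sequences are those of RefSeq. The precursor below shows both arms in capitals, with the 5p arm first.
miR-223 hairpin: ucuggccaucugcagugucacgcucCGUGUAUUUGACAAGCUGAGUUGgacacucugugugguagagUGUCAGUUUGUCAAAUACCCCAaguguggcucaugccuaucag
The longest perfectly paired stretch between the arms was 11 bases, joining bases 4 to 14 of the 5p arm to bases 8 to 18 of the 3p arm. Among the 1679 mature mouse sequences of the same RefSeq set, no other had the seed of either arm. Over bases 2 to 7 alone, 1 other sequence matched miR-223-3p and 0 matched miR-223-5p. The hairpin, 110 bases long, lay within an exon of F630028O10Rik. That gene lies on the same plus strand as the hairpin, although its annotated type is antisense. The nearest protein-coding neighbours of the hairpin were Msn, 74265 bases before it, and Vsig4, 4277 bases after it.

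Both arms were read in every library. miR-223-3p had 497 to 21374 reads per library with a median of 2524, and miR-223-5p had 7 to 961 with a median of 113. The 3p arm took a median of 0.173% of miRNA reads and ranked 50th of 483 by mean level, while the 5p arm ranked 128th. There were more 3p than 5p reads in every library, by a median of 21.4-fold and a range of 6.41-fold to 654-fold. Counting error was therefore a larger share of the spread for the 5p arm.

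Library totals ran from 206490 to 11814515 miRNA reads with a median of 1475030. The erythroid miR-16-5p took a median of 38.6% to 53.3% of reads, depending on cohort code and time point. Levels are given as log2 CPM, counts brought to a common library size on the log2 scale, after TMM scaling, a correction for composition whose factors ran from 0.372 to 1.59. Some libraries stood apart before any comparison. In G3 females, 3 of the 4 sham libraries at day 5 had 419427 to 613538 reads and scaling factors of 0.533 to 0.656. In the C3H mice of code G2 before irradiation, the median scaling factor was 0.727, against 0.983 in G4. Most values of miR-223, and the marker results at C57Bl/6 day 5, that rest on these libraries are given with and without them, or within each cohort code. The day 5 contrasts by sex and the correlations are given with them only.

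The level of miR-223-3p spread more over time points and strains than between irradiated and sham mice of most time points. Over the 32 groups formed by strain, treatment and time, the mean ran over 2.36 log2 units, against a median SD within groups of 0.51. The highest mean was that of sham irradiated C57Bl/6 mice at day 5, 12.11 ± 0.82 log2 CPM (SD, n = 16). The irradiated and the sham C57Bl/6 mice at month 4 followed, with 11.85 ± 0.50 (SD, n = 29) and 11.76 ± 0.39 (SD, n = 16). The lowest were C3H mice, with 9.91 ± 0.42 in irradiated mice at day 5 (SD, n = 32), 9.89 ± 0.51 in irradiated mice at month 4 (SD, n = 17) and 9.75 ± 0.59 in sham mice at month 4 (SD, n = 16). In this order, 30 of the 31 gaps between neighbouring means were smaller than the SD within the groups. So many means over this range leave small gaps, and neighbours were not tested against each other. For miR-223-5p the means ran over only 1.10 log2 units, from 5.59 ± 0.43 in sham C3H mice at day 2 (SD, n = 16) to 6.69 ± 0.36 in irradiated C57Bl/6 mice at month 2 (SD, n = 36). None of its 31 gaps exceeded the SD.

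**Figure D1:**
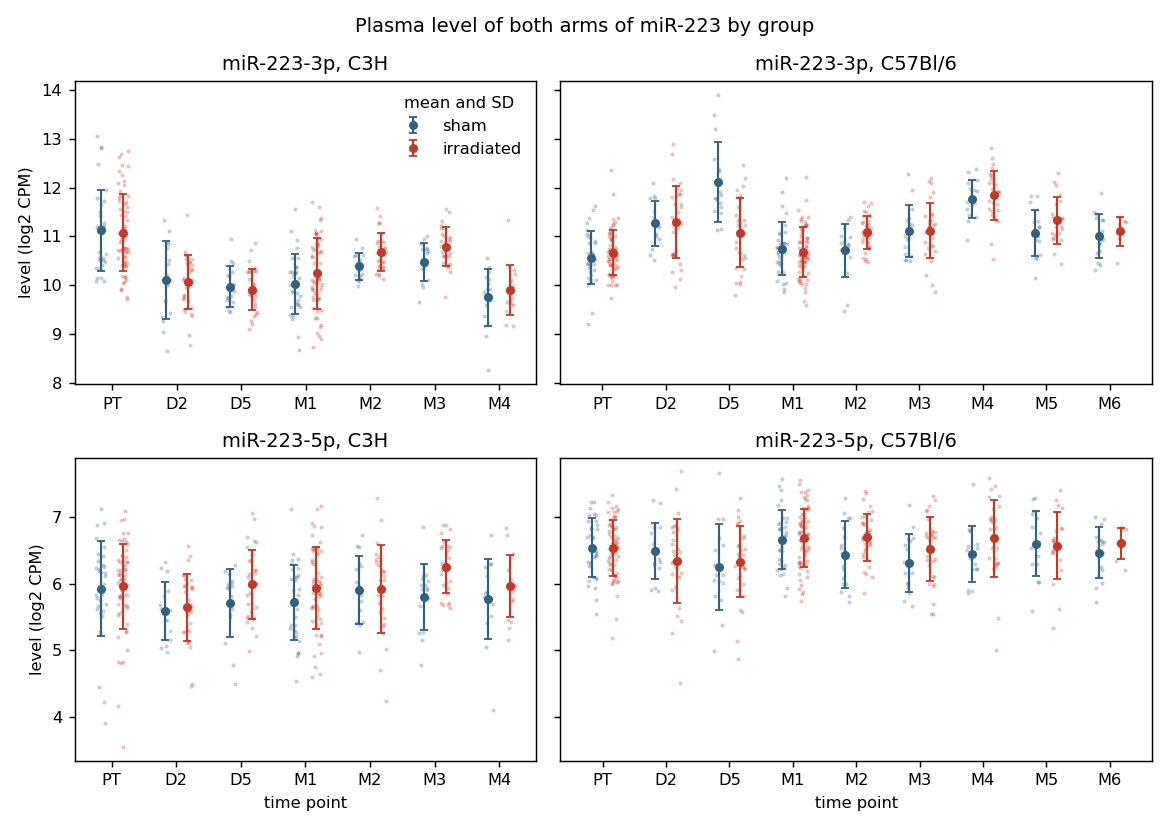
Level of miR-223-3p and miR-223-5p (log2 CPM) in each plasma sample by strain, treatment and time point, with points for samples and bars for the mean ± SD. The sham C57Bl/6 mice at day 5 hold the highest 3p mean (12.11), and the 5p means stay between 5.59 and 6.69.

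In C57Bl/6 mice at day 5, miR-223-3p was lower in irradiated than in sham mice. This was the only 1 of 14 comparisons after irradiation in which either arm passed the test. Both groups stood above their means before irradiation. Those were 10.66 ± 0.46 in mice assigned to irradiation (SD, n = 64) and 10.57 ± 0.54 in sham mice (SD, n = 32). The day 5 means were 11.07 ± 0.71 in irradiated and 12.11 ± 0.82 in sham mice. Irradiated mice ran from 9.80 to 12.47 log2 CPM with a median of 11.18 (n = 32), and sham mice from 11.13 to 13.91 with a median of 11.82 (n = 16). The groups overlapped, with 15 of 32 irradiated mice below all 16 sham mice, 17 within the sham range and none above it. The difference was −1.12 log2 units (SE 0.17, adjusted p = 1.37e-08 by the quasi-likelihood test of edgeR, adjusted after Benjamini and Hochberg over all 483 miRNA). Of all miRNA, 26.9% passed at 1 or more of the 14 time points. At this one 14.1% passed, 7.87% as lower, and miR-223-3p was 5th by p and 34th by size among the negative changes.

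The difference at day 5 was found in 1 of the 2 cohort codes. In G1 mice, the effect was −0.10 (SE 0.20, adjusted p = 0.84 in edgeR fitted within cohort codes), whereas in G3 mice it was −2.34 (SE 0.23, adjusted p = 5.14e-16). Of the miRNA tested within each code, 5.44% passed in G1 and 28.9% in G3. The difference between the codes, 1.93 (SE 0.31), had an adjusted p of 5.83e-08 in edgeR, and 17.6% of miRNA tested passed the same comparison of codes. In G1, means were 11.68 ± 0.50 in irradiated and 11.80 ± 0.37 in sham females, and 11.51 ± 0.39 and 11.73 ± 0.55 in males (SD, n = 8 irradiated and 4 sham per sex). In G3 males they were 10.87 ± 0.54 and 11.84 ± 0.59. The G3 females stood farthest apart, with 10.25 ± 0.28 in irradiated and 13.07 ± 0.97 in sham mice, and no overlap.

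The 4 sham G3 females at day 5 held 13.49, 13.20, 13.91 and 11.68 log2 CPM of miR-223-3p, from 4633, 2147, 3430 and 4964 reads in totals of 613538, 424138, 419427 and 1406579. The 3 shallow libraries were the high ones. With scaling by library size alone the same libraries held 12.88, 12.31, 13.00 and 11.79, still above the highest irradiated G3 female (10.62). Their 5p arm had 81, 7, 20 and 115 reads. miR-150-5p, the miRNA most typical of lymphocytes, stood at 12.02, 11.11 and 11.39 in the shallow libraries and at 13.49 in the deep one, against 12.45 to 12.95 in sham G3 males. The summed lymphocyte list, 6 miRNA, ran from 11.39 to 14.30 in these libraries and from 13.69 to 14.29 in sham G3 males. Without the G3 females of day 5, the effect on miR-223-3p was −0.41 with an adjusted p of 0.25 in edgeR, and no time point passed. Without libraries under 500000 reads, 4 of which were sham C57Bl/6 libraries of day 5, it was −0.66 with an adjusted p of 0.0109 in edgeR. Of the sham G3 females, that cut removed the libraries of 424138 and 419427 reads. It kept the one of 613538 reads, which held 13.49 log2 CPM. The other sham libraries of day 5 it removed were a G1 male (433920 reads) and a G3 male (494430 reads). Leaving out any 1 of the 16 sham libraries gave −1.19 to −0.99, with all 16 values past the threshold. The part of depth and library composition in this result was not tested.

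**Figure D2:**
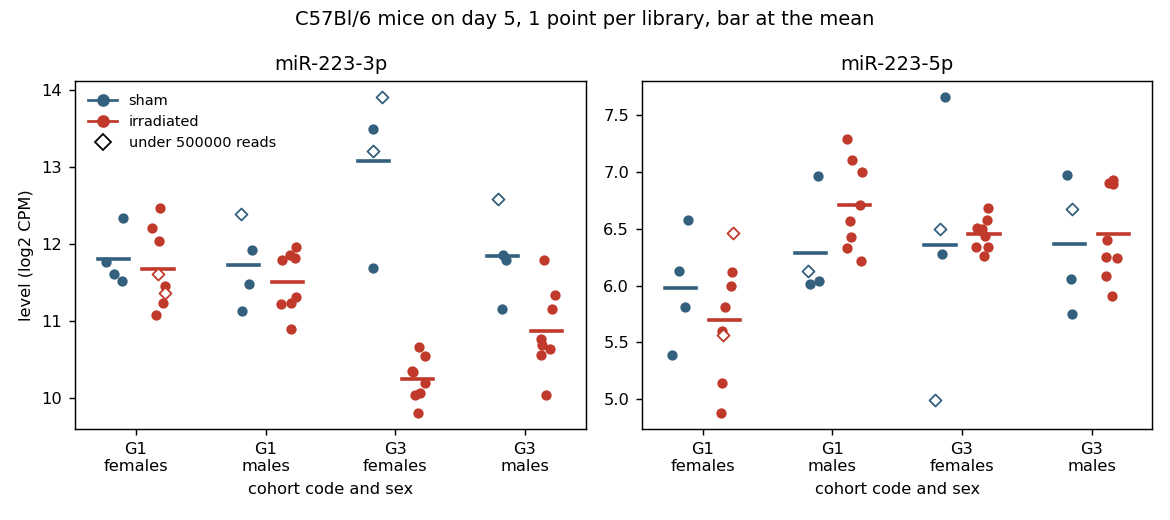
Levels of both arms (log2 CPM) in each C57Bl/6 library of day 5, by cohort code and sex, with irradiated and sham mice side by side and open diamonds for libraries under 500000 reads. Irradiated G3 females (9.80 to 10.65) sit below all 4 sham G3 females (11.68 to 13.91), and irradiated and sham mice overlap in G1.

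At the other time points miR-223-3p differed by less than the test could separate. In C3H mice at month 1, irradiated mice held 10.24 ± 0.73 (SD, n = 58) and sham mice 10.02 ± 0.61 (SD, n = 32). The difference was 0.27 (SE 0.13), with an unadjusted p of 0.0385 and an adjusted p of 0.34 in edgeR. At month 2, C3H mice ran from 10.13 to 11.59 after irradiation with a median of 10.64 (n = 28), and from 9.98 to 10.94 with a median of 10.33 in sham mice (n = 16). Here 5 of 28 irradiated mice lay above all sham mice and none below, for a difference of 0.33 (SE 0.18, adjusted p = 0.66 in edgeR). Month 3 gave 0.32 (SE 0.19, adjusted p = 0.39 in edgeR), with 8 of 27 irradiated mice above all sham mice. Among C57Bl/6 mice, month 2 gave 0.33 (SE 0.18, adjusted p = 0.44 in edgeR) with 8 of 36 irradiated mice above the sham range, and month 5 gave 0.26 (SE 0.19, adjusted p = 0.53 in edgeR). These differences were positive but none passed, and the share of miRNA that did pass was 3.31%, 0.621% and 2.07% in C3H at months 1, 2 and 3, and 3.31% and 3.52% in C57Bl/6 at months 2 and 5. The remaining comparisons gave differences of miR-223-3p between −0.09 and 0.14, with 3.11% and 0.414% of miRNA passing in C3H at day 5 and month 4, and 6.63%, 3.73%, 1.66%, 4.76% and 0.414% in C57Bl/6 at day 2 and months 1, 3, 4 and 6. Early after exposure in C3H mice, day 2 gave −0.13 (SE 0.18, adjusted p = 0.82 in edgeR), when 4.97% of miRNA passed. Before irradiation, mice assigned to irradiation minus sham mice gave −0.09 (SE 0.13) in C3H and 0.08 (SE 0.13) in C57Bl/6, neither past the threshold, and 0% of miRNA passed in either strain.

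**Figure D3:**
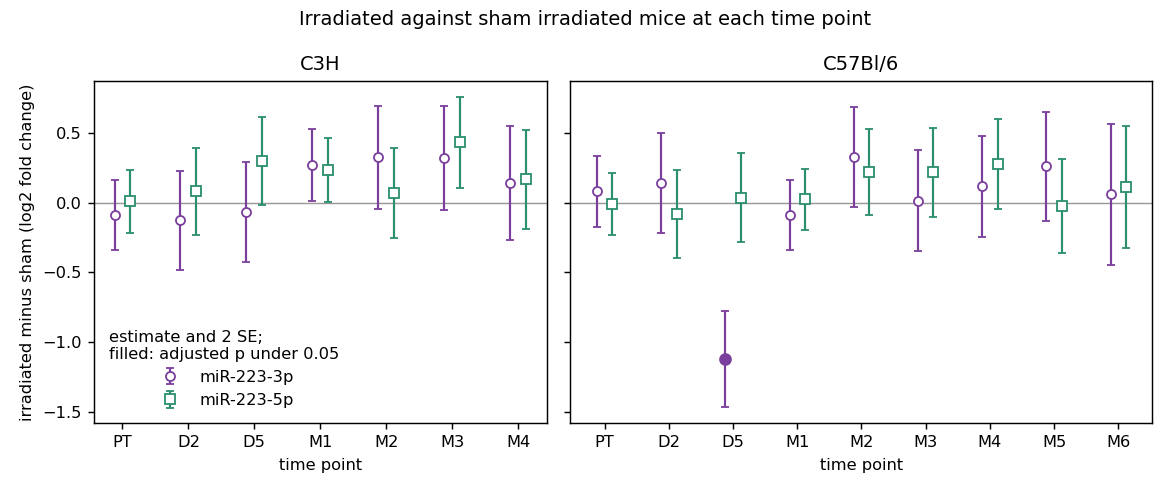
Irradiated minus sham difference (log2) of each arm by time point and strain, with bars of 2 SE and filled symbols for an adjusted p under 0.05 in edgeR. The 3p arm in C57Bl/6 mice at day 5 (−1.12) is the only filled symbol.

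The less abundant arm, miR-223-5p, passed at none of the 14 time points in edgeR's quasi-likelihood test, with 2 unadjusted p under 0.05 and differences between −0.08 and 0.43. The largest was in C3H mice at month 3. There, irradiated mice ran from 5.63 to 6.88 with a median of 6.25 (n = 27), and sham mice from 4.78 to 6.84 with a median of 5.93 (n = 16). The groups overlapped nearly throughout, with 2 of 27 irradiated mice above the sham range, and the difference was 0.43 (SE 0.16, adjusted p = 0.17 in edgeR). C3H mice at month 1 gave 0.24 (SE 0.11, adjusted p = 0.34 in edgeR) and at day 5 gave 0.30 (SE 0.16, adjusted p = 0.44 in edgeR). At day 5 in C57Bl/6 mice, the 3p arm was lower in irradiated than in sham mice. There the 5p arm held 6.33 ± 0.53 in irradiated (SD, n = 32) and 6.25 ± 0.65 in sham mice (SD, n = 16). Its difference was 0.04 (SE 0.16, adjusted p = 0.92 in edgeR), with 31 of 32 irradiated mice inside the sham range and an interval of 2 SE from −0.28 to 0.36. Without the G3 females of day 5 it was 0.12 (SE 0.18, adjusted p = 0.84 in edgeR).

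The arms therefore moved apart in C57Bl/6 mice at day 5, which the ratio of 5p to 3p reads within each library measured without any scaling. This log2 ratio was −4.75 ± 0.93 in irradiated (SD, n = 32) and −5.87 ± 0.92 in sham mice (SD, n = 16). The difference of 1.12 had a two-sided permutation p of 0.0003 and an adjusted p of 0.0042 over the 14 comparisons, and the other 13 did not pass. Within G1 the difference was 0.25 (exact permutation p = 0.474), and within G3 it was 1.98 (exact permutation p = 1.36e-06). Without the G3 females it was 0.53, with a permutation p of 0.0646 and an adjusted p of 0.30.

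The same ratio also separated cohort codes and time points within a strain, with irradiated and sham mice pooled. Most of the 24 combinations of code and time had a mean between −4.78 and −3.87. The exceptions were lower, with −5.98 ± 1.09 in G2 mice before irradiation (SD, n = 48), −5.47 ± 0.62 and −5.48 ± 0.80 in G1 mice at days 2 and 5 (SD, n = 24 each), and −5.24 ± 0.40 in G1 mice at month 4 (SD, n = 45). At day 5, G3 mice averaged −4.11 ± 0.42 after irradiation (SD, n = 16) and −6.10 ± 1.13 in sham mice (SD, n = 8), so that their pooled mean lies between groups that differed. The 4 exceptions also had the highest 3p levels, with medians of 11.61 to 11.85 log2 CPM. G4 mice before irradiation, the same strain as G2, held −4.35 ± 0.40 (SD, n = 48). The labels give no sequencing run or date, so collection, library preparation and cohort code cannot be told apart here.

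**Figure D4:**
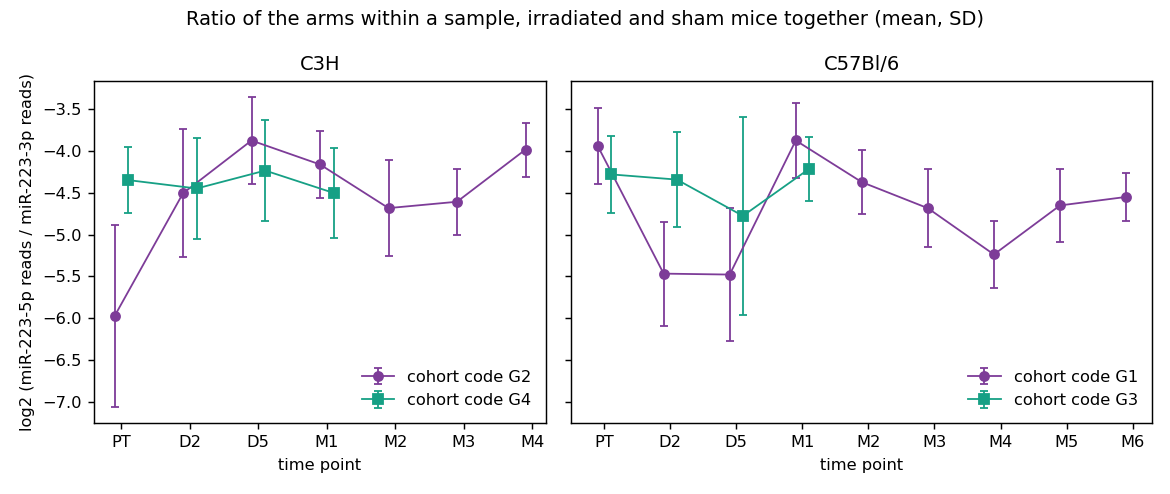
Mean ± SD of the log2 ratio of miR-223-5p to miR-223-3p reads by cohort code and time point, irradiated and sham mice together. G2 before irradiation (−5.98) and G1 at day 2, day 5 and month 4 (−5.47, −5.48 and −5.24) lie below the other combinations, and the pooled G3 mean of day 5 joins irradiated mice at −4.11 with sham mice at −6.10.

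The strains were compared next. Over the 6 time points after irradiation that both strains shared, the effect on miR-223-3p differed between C57Bl/6 and C3H (F = 3.96, adjusted p = 0.0172 in edgeR), as it did for 4.35% of miRNA tested. In limma-voom this test did not pass, either without a block for the mouse or with one. The adjusted p in limma-voom was 0.0939 with a random and 0.354 with a fixed block. The effect in C57Bl/6 minus that in C3H was −1.06 (SE 0.25, adjusted p = 0.00457 in edgeR) at day 5, when 1.86% of miRNA tested passed, and the other 5 time points did not pass for miR-223-3p. At those, 0.621% (day 2), 1.24% (month 1), 0.207% (month 2), 0.414% (month 3) and 1.24% (month 4) of miRNA passed. C3H mice at day 5 held 9.91 ± 0.42 in irradiated (SD, n = 32) and 9.97 ± 0.42 in sham mice (SD, n = 16), with overlapping ranges. Without the C57Bl/6 G3 females of day 5 the strain difference was −0.36 and the adjusted p over the shared time points was 0.84 in edgeR. For the 5p arm the adjusted p was 0.88 in edgeR.

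Before irradiation the arms differed between the strains in opposite directions. The 3p arm was lower in C57Bl/6 than in C3H mice by 0.64 on the log2 scale (C57Bl/6 minus C3H −0.64, SE 0.09, adjusted p = 1.71e-11 in edgeR), and the 5p arm was higher by 0.52 (SE 0.08, adjusted p = 4.20e-10). As many as 50.7% of miRNA tested differed between the strains before irradiation, 28.8% lower and 21.9% higher in C57Bl/6 mice.

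The 3p difference depended on which cohort codes were set against each other. G1 mice held 10.48 ± 0.47 and G3 mice 10.78 ± 0.46, whereas the C3H mice held 11.72 ± 0.61 in G2 and 10.46 ± 0.35 in G4 (SD, n = 48 each). Against G2, G1 was lower by 1.36 and G3 by 1.001 (differences of −1.36 and −1.001, adjusted p = 8.41e-31 and 3.06e-18 in edgeR). Against G4, G1 gave 0.00 (SE 0.11, adjusted p = 0.996) and G3 was higher (0.36, SE 0.11, adjusted p = 0.00369). The codes of 1 strain also differed, with G2 above G4 by 1.36 (SE 0.11, adjusted p = 6.16e-31 in edgeR) and G1 below G3 (−0.36, SE 0.11, adjusted p = 0.00464). Between G2 and G4, 54.9% of miRNA tested differed, and between G1 and G3, 31.5%. Across strains the share was 51.3% for G1 and 56.3% for G3 against G2, and 43.7% and 37.9% against G4.

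The 5p arm was higher in C57Bl/6 for all 4 pairings of codes. G1 mice held 6.56 ± 0.44, G3 mice 6.51 ± 0.42, G2 mice 5.76 ± 0.72 and G4 mice 6.14 ± 0.54 (SD, n = 48 each). The differences were 0.70 and 0.69 against G2, and 0.38 and 0.36 against G4 (adjusted p of 0.00191 and 0.00351 in edgeR for the latter). The log2 ratio of the arms differed by 2.04 between G1 and G2 (permutation p = 1e-05, the smallest these permutations can give) and by 0.07 between G3 and G4 (permutation p = 0.439). Each cohort code belonged to 1 strain, so what the codes stand for and the strain cannot be told apart.

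**Figure D5:**
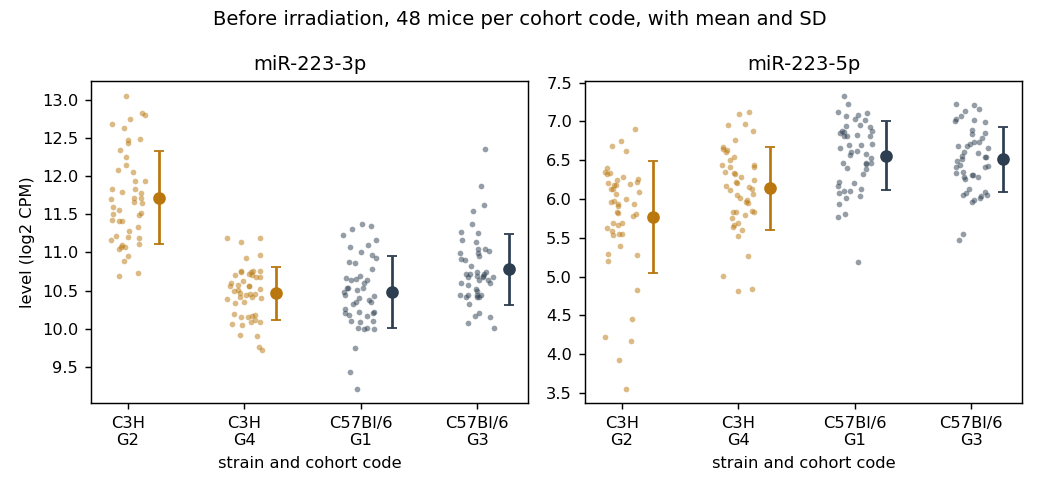
Levels of both arms (log2 CPM) before irradiation by strain and cohort code, 48 mice each, with the mean ± SD. The 3p level of C3H mice of code G2 (11.72) stands above the other codes (10.46 to 10.78), and the 5p level is higher in both C57Bl/6 codes than in both C3H codes.

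In sham irradiated mice the 3p level also moved over the months, downward in C3H and upward in C57Bl/6 relative to the samples before irradiation. C3H sham mice fell at all 6 later time points, with log2 differences of −1.10 at day 2, −1.36 at day 5, −1.24 at month 1, −0.98 at month 2, −0.87 at month 3 and −1.54 at month 4 (SE 0.15 to 0.19, adjusted p at most 5.19e-05 in edgeR). All 16 sham C3H mice sampled at months 2, 3 and 4 were below their own level before irradiation. Of all miRNA tested, 13.7%, 10.4%, 15.3%, 9.11%, 13.9% and 19.9% were lower at these time points, in the same order. C57Bl/6 sham mice rose at 5 of 8 time points in edgeR. The differences were 0.67 at day 2, 1.70 at day 5, 0.55 at month 3, 1.15 at month 4 and 0.49 at month 5. Months 1, 2 and 6 gave 0.20, 0.13 and 0.41 and did not pass. From month 2 on, samples of G1 or G2 alone were set here against samples before irradiation of both codes of the strain. The month 5 call was lost under 4 alternatives, with 0.40 to 0.45 and adjusted p of 0.0694 to 0.0881. With the mouse as a random block, month 6 gave 0.50 and passed (adjusted p = 0.0124 in limma-voom). All 16 sham C57Bl/6 mice at day 5 and all 16 at month 4 were above their own earlier level. The share of all miRNA tested that rose was 13.5% at day 2, 14.1% at day 5, and 14.9%, 10.1%, 18.8%, 14.9%, 15.3% and 18.4% at months 1 to 6.

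The size of these changes differed with cohort code in C3H mice. In G2, sham mice fell by 1.39 to 2.19 on the log2 scale and all 6 time points passed, as did 41.4%, 32.6%, 53.1%, 42.6%, 46.1% and 55.9% of the miRNA tested. In G4, which started lower, day 2, day 5 and month 1 gave −0.20, −0.32 and −0.10 and none passed in edgeR fitted within cohort codes, where 7.95%, 1.1% and 13.2% of miRNA did. In C57Bl/6, the rise at day 2 was 1.02 in G1 (adjusted p = 1.56e-05 in edgeR), and G3 gave 0.16 (adjusted p = 0.74), with 22.2% and 15.9% of miRNA passing. The rise at day 5 was 1.40 in G1 and 2.06 in G3 (adjusted p of 3.44e-09 and 3.47e-13 in edgeR, with 25.1% and 27.5% of miRNA passing). Without the G3 females of day 5 it was 1.19 over both codes. Within G1 alone, months 3, 4, 5 and 6 gave 0.74, 1.34, 0.64 and 0.61. These all passed (adjusted p at most 0.00155 in edgeR), as did 139, 120, 129 and 154 of the 423 miRNA tested. Months 1 and 2 gave 0.12 and 0.31 in G1 and did not pass, where 28 and 99 of the 423 did. With the codes pooled, the 5p arm passed in the sham mice at 1 of 14 time points, C3H day 2. There it fell by 0.43 (difference −0.43, SE 0.16, adjusted p = 0.0282 in edgeR), and 13.7% of miRNA tested were lower. Within codes it gave −0.44 in G2 (adjusted p = 0.12 in edgeR) and −0.36 in G4 (adjusted p = 0.42), and neither passed. Time after treatment, age and processing of the samples cannot be told apart in these contrasts.

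Females held less miR-223-3p than males before irradiation. In C3H mice the means were 10.96 ± 0.73 and 11.22 ± 0.85 (SD, n = 48 each), a difference of −0.39 (SE 0.12, adjusted p = 0.0205 in edgeR). The C57Bl/6 means were 10.46 ± 0.41 and 10.80 ± 0.50 (SD, n = 48 each), a difference of −0.44 (SE 0.12, adjusted p = 0.00582 in edgeR). Between the sexes 14.5% and 14.7% of miRNA tested differed in the respective strains. The 5p arm gave −0.12 and −0.20, and neither passed. Within cohort codes, the 3p difference passed in G2 (−0.46, adjusted p = 0.0238 in edgeR) and G3 (−0.61, adjusted p = 0.000328), whereas G4 gave −0.19 (adjusted p = 0.38) and G1 gave −0.22 (adjusted p = 0.50). The share of miRNA passing was 7.25% in G2, 13.9% in G3, 19.3% in G4 and 5.18% in G1. For the 5p arm, G4 passed with −0.39 (adjusted p = 0.0422 in edgeR) and the other codes, from −0.33 to 0.22, did not. In C57Bl/6 mice at day 5 the effect of irradiation on the 3p arm was −1.53 (SE 0.24) in females and −0.59 (SE 0.24) in males, and the difference between the sexes, −0.95 (SE 0.35), had an adjusted p of 0.106 in edgeR. Over day 2, day 5 and month 1 together, 5.38% of miRNA differed between the sexes in their response in C57Bl/6 and 0.414% in C3H, and neither arm of miR-223 did. The 4 sham G3 females described above are part of that contrast.

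Other miRNA of blood cells were read beside miR-223 to show what the rest of the leukocyte signal did. miR-150-5p, abundant in mature lymphocytes, fell after irradiation in both strains, with log2 differences of −1.70 and −1.29 in C3H mice at days 2 and 5, and −1.55 and −1.10 in C57Bl/6 mice. miR-155-5p, a miRNA of activated leukocytes, fell at the same 4 points, with −1.51, −0.79, −1.15 and −1.41. miR-142a-3p, found across blood lineages, gave −0.99 in C3H at day 2 (adjusted p = 0.00520 in edgeR) and −1.54 in C57Bl/6 at day 5 (adjusted p = 7.92e-08), but −0.75 and −0.07 at the other early points, which did not pass. The regulator of innate immune signalling miR-146a-5p passed only in C3H mice at day 2, with −0.45 (adjusted p = 0.0407 in edgeR). miR-451a and miR-16-5p of red cells and miR-126a-3p of endothelium and platelets passed at none of these points in edgeR, and the liver miRNA miR-122-5p fell in C3H at day 2 (−1.06) and in C57Bl/6 at days 2 and 5 (−1.69 and −1.74). Without the G3 females, day 5 in C57Bl/6 gave −1.46 for miR-150-5p, −0.92 for miR-155-5p and −1.93 for miR-122-5p, all still past the threshold in edgeR, whereas miR-142a-3p gave −0.46 (adjusted p = 0.38) and did not pass. miR-146a-5p, miR-451a, miR-16-5p and miR-126a-3p did not pass there either, and 4.36% of miRNA tested passed.

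The list of 10 myeloid and general leukocyte miRNA, which leaves out miR-223, had 6 members lower and none higher in C3H mice at day 2, with a median change of −0.43 against −0.03 over all miRNA. Of all miRNA, 3.31% were lower and 1.66% higher there. In C57Bl/6 mice at day 5, when miR-223-3p was lower in irradiated mice, 3 of the 10 were lower and 1 higher. The median change was −0.16 against −0.00 over all miRNA. Of all miRNA, 7.87% were lower and 6.21% higher there. There, the lymphocyte list had 1 member lower and 1 higher of 5 tested, the erythroid list 1 higher of 7, the platelet and endothelial list 1 higher of 6, and the liver list 2 lower and 1 higher of 5. These counts pool strata whose median levels differed in opposite directions, given here without a test. In G3 females, the median summed level was 14.02 log2 CPM in irradiated and 12.08 in sham mice for the lymphocyte list, 16.43 and 15.33 for the leukocyte list, 16.05 and 14.45 for the platelet and endothelial list, and 13.15 and 10.96 for the liver list. In G1 females, it was lower in irradiated mice for the first 3 of these, with 13.10 against 13.99, 15.61 against 16.18 and 15.28 against 15.57. In G1 males the lymphocyte, leukocyte, and platelet and endothelial lists gave 13.28 against 14.41, 15.64 against 15.59 and 15.11 against 15.62. In G3 males they gave 13.60 against 14.12, 16.52 against 16.32 and 16.10 against 15.67. Without the G3 females of day 5, the leukocyte, lymphocyte and liver lists each had 1 member lower and none higher, and no member of the erythroid or the platelet and endothelial list passed in edgeR. Of all miRNA, 2.49% were then lower and 1.87% higher. The part of the G3 female libraries in the pooled counts was not tested further. The summed leukocyte list ranged from 15.01 to 17.30 in irradiated and from 14.99 to 16.65 log2 CPM in sham mice at that time, and no leukocyte marker was at 0 in all its libraries. In C57Bl/6 mice at day 2 the leukocyte list had 2 lower and 1 higher, and in C3H mice at day 5 it had 2 lower, against 4.35% lower and 2.28% higher, and 1.45% lower and 1.66% higher, over all miRNA.

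Within libraries, the ratio of miR-223-3p to miR-150-5p was higher in irradiated mice at day 2 in both strains and at day 5 in C3H. miR-223-3p itself gave −0.13 and −0.07 in C3H mice at days 2 and 5, and 0.14 in C57Bl/6 mice at day 2. None of these passed in edgeR, whereas miR-150-5p was lower at each of these points, as given above. The log2 ratio of 3p to miR-150-5p reads was higher in irradiated C3H mice by 1.53 at day 2, 1.25 at day 5 and 0.80 at month 1 (each permutation p = 1e-05, the smallest possible, adjusted p = 3.5e-05). The difference narrowed to 0.51 at month 2 and 0.39 at month 3 (adjusted permutation p of 0.0305 and 0.0373) and was 0.30 at month 4 (adjusted permutation p = 0.18). C57Bl/6 mice showed 1.55 at day 2 (adjusted permutation p = 3.5e-05) and −0.07 at day 5 (adjusted permutation p = 0.842). Without the G3 females the latter was 0.97 (adjusted permutation p = 2.8e-05). Months 1 to 6 gave −0.03, −0.17, −0.25, −0.10, −0.05 and −0.07 in C57Bl/6, and none passed (adjusted permutation p from 0.182 to 0.842). The ratio to red cell miR-451a passed at none of the 14 time points by permutation. In C57Bl/6 mice at day 5 it gave −0.98 (permutation p = 0.0122, adjusted p = 0.171), and −0.12 without the G3 females.

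Among the 163 other miRNA with a mean of at least 5 log2 CPM, those most like miR-223-3p over the 32 group means were miR-195a-5p (Pearson's r = 0.84), miR-139-5p (0.81), miR-184-3p (0.80), miR-1198-5p (0.76) and miR-574-3p (0.73). Over all libraries after group means were subtracted, the closest were miR-24-3p (r = 0.72), miR-423-5p (0.64), miR-17-5p (0.61), miR-140-5p (0.57) and miR-18a-5p (0.55). Both lists share libraries and scaling factors with miR-223-3p, so the coefficients are descriptions. Group means pooled the cohort codes, so differences between codes stay in the second set. Before irradiation, G2 mice stood above G4 mice for miR-223-3p (11.72 and 10.46). In females assigned to irradiation (n = 16 per code), so did the whole second set. They held 12.82 and 12.35 of miR-24-3p, 11.40 and 10.16 of miR-423-5p, and 11.19 and 9.30 of miR-17-5p. For miR-140-5p it was 10.12 and 8.74, and for miR-18a-5p 8.68 and 7.55. Of the first set, the same females held 8.14 and 7.36 of miR-195a-5p and 7.69 and 7.42 of miR-139-5p. They held 13.73 and 12.53 of miR-184-3p, 9.27 and 7.97 of miR-1198-5p, and 9.24 and 9.25 of miR-574-3p. The 5p arm followed the 3p arm less closely, with r = 0.66 over group means and 0.33 within groups. Several of the second set were also high in the sham G3 females of day 5. There, the mean was 13.42 log2 CPM for miR-24-3p, 12.61 for miR-423-5p, 10.25 for miR-17-5p and 10.30 for miR-140-5p, against 12.25, 10.23, 7.99 and 7.81 in irradiated G3 females.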

How the data were processed

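The deposited table holds the authors' raw read counts per mature miRNA, unnormalized, 1 column per plasma sample. Per the study's methods, RNA from plasma was made into QIAseq miRNA libraries, and reads were trimmed and aligned to mm10 with Illumina BaseSpace applications. Hemolysed plasma and runs with few miRNA reads had been left out. The miRBase release and any use of molecular identifiers are not given in the sources used here.

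Groups were strain, treatment and time point, from the labels. miRNA were filtered with filterByExpr (483 of 1915 kept, 99.99% of reads), scaled with TMM and fitted over all 899 samples and 32 groups with edgeR 4.0.16 (quasi-likelihood test) in R 4.3.3. A Benjamini-Hochberg adjusted p under 0.05 within a contrast counted as passed. Levels are log2 CPM with a prior count of 2. Ratios of reads were tested with two-sided permutation tests over samples (100000 resamples, or exact with fewer than 10 mice in a group). Alternatives used limma 3.58.1, DESeq2 1.42.0, other scalings and filters, cohort and sex as covariates, the study's quantile normalization and a block for the mouse. Dropping single strata or shallow libraries, and fits within cohort codes, were chosen after seeing the data. The procedure was tested on simulated data.

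Besides both arms of miR-223, values are given for 8 miRNA typical of blood cells, endothelium or liver and for the 5 miRNA most correlated with miR-223-3p over group means and the 5 within groups. These members and lists were chosen with earlier results of these data known. Samples of the same mouse deviated together only weakly (mean correlation 0.0813 over 1962 pairs and 164 miRNA, against −0.00216 between mice). Mouse numbers in the labels give the pairing over time.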

Additional observations from a re-analysis of the deposited data

Results flagged for a closer look

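The effect of irradiation on miR-223-3p differed between the strains by the F test over their 6 shared time points (adjusted p = 0.0172 in edgeR). Of all miRNA tested, 4.35% passed that test, and for miR-223-3p the call was lost under several alternatives, given below. At day 5 the C57Bl/6 effect minus the C3H effect was −1.06, and without the G3 females of C57Bl/6 day 5 it was −0.36. Within C57Bl/6 mice at day 5, the effect in G1 minus that in G3 was 1.93, with an adjusted p of 5.83e-08 in edgeR. The share of miRNA passing the same comparison of codes was 17.6% at day 5 in C57Bl/6. It was 0% at day 2 in both strains and 0.207% at month 1 in C57Bl/6.

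Of the 8 irradiated C57Bl/6 mice at month 6, 1 stood apart from the rest of its group for miR-223-3p, at 10.46 log2 CPM in a range of 10.46 to 11.40. Its gap to the next mouse was 0.546 of the range, above Dixon's critical value of 0.526 for 8 samples. Chance puts about 1 in 20 such groups past that value. This mouse lay within the range of the 16 sham mice (10.30 to 11.89), and the 5p arm had no such sample.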

How the results depend on the processing

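The difference of miR-223-3p between irradiated and sham C57Bl/6 mice at day 5 passed under every other scaling, filter, tool and covariate tried. With a replicate block for the mouse it was −1.04 (random) or −1.23 (fixed). It did not pass without the G3 females of day 5 (−0.41, 0 of 14 time points passing), and leaving out 1 sham library at a time gave −1.19 to −0.99. The strain test over shared time points lost its call with library size only (adjusted p = 0.0929), without libraries under 500000 reads (0.516), with limma-voom (0.107), the study's normalization (0.103), the mouse as a random (0.0939) or fixed block (0.354), and without the G3 females (0.839). The strain difference at day 5 did not pass with library size only (−0.85) or without libraries under 500000 reads (−0.55). Nor did it pass with limma-voom (−0.96), with the study's normalization (−1.004) or without the G3 females (−0.36).

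In sham mice, 3 rather than 5 time points of C57Bl/6 passed for the 3p arm under the study's normalization, where month 2 turned to −0.041. Month 6 passed under 7 alternatives, and month 5 was lost with RLE (0.41), no filter (0.45), the study's normalization (0.40) and DESeq2 (0.41). For the 5p arm, C3H day 2 no longer passed (0 time points) with RLE, library size only (0.00086), no filter, the study's normalization or DESeq2. Apart from that 5p value, signs turned only for differences that had not passed. The 3p arm at C57Bl/6 month 5 gave −0.11 with the fixed mouse block. The 5p arm at C57Bl/6 day 2 turned positive with RLE (0.011), library size only (0.061) and no libraries under 500000 reads (0.070). The same held with only the groups compared (0.00048), the study's normalization (0.015) and DESeq2 (0.015). At day 5 it turned negative with RLE (−0.065), only the groups compared (−0.042), DESeq2 (−0.046) and without G1 males (−0.020). Without the G3 females the ratio of the miR-223 arms at day 5 was 0.53 (0 of 14 passing) and the ratio of 3p to miR-150-5p was 0.97. The cause of these shifts was not tested beyond the samples left out. Of the alternative values of the results chosen for this check, 454 kept their direction and side of the threshold, and 24 no longer passed. Another 7 newly passed, 14 changed sign, and 8 counts of passing time points moved. Over every irradiated against sham estimate, those before irradiation included, 15 of 209 alternative values changed sign for the 3p arm. For the 5p arm it was 22 of 209, and for neither arm was a call among them. Set beside the main fit, the replicate block changed no call apart from the strain test and sham month 6 of C57Bl/6. The strain test had also lost its call in limma-voom without a block, as given above. Depth limits the 5p arm most, with as few as 7 reads in a library.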

Other observations

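Irradiated mice that still gave a sample at the last time point of their strain were set against those that did not, as the labels give no survival time. None of the 12 comparisons of miR-223-3p passed. The smallest p was in C3H mice of code G2 at month 1, where mice with a month 4 sample held 9.58 ± 0.55 log2 CPM (SD, n = 17) and those without held 10.002 ± 0.46 (SD, n = 13), a difference of −0.43 (permutation p = 0.0314, adjusted p = 0.377).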
